A study of Mus musculus with 12 samples.

Results

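Potassium channel genes were taken from whole-lung arrays of Foxf1+/- and wildtype mice as every gene whose symbol in the array annotation starts with Kcn. The set holds the pore-forming channel subunits, their auxiliary subunits and a few genes that only share the name. It came to 88 of the 19057 named genes on the array, covered by 173 probes, and 1 probe stood for each gene, the one with the highest mean over the 12 arrays in the deposited processed table. All 88 symbols matched the RefSeq mouse annotation, in which 86 code for protein and 2, Kcnq1ot1 and Kcnmb4os1, are long noncoding RNAs.

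The study compared lungs of 6 Foxf1+/- pups, in which 1 Foxf1 allele had lost its forkhead domain in every cell of the animal, with lungs of 6 wildtype littermates. All pups were at postnatal day 0.5 and on the same mixed 129/C57BL6/J background, and RNA of each whole lung was labelled and read on 1 Illumina MouseWG-6 v2.0 bead array. The arrays fell by their raw signal into 2 experiments, A with 4 Foxf1+/- and 2 wildtype lungs and B with 2 Foxf1+/- and 4 wildtype lungs, with median raw intensities of 72.8 to 89.3 in A and 57.3 to 62.6 in B. This split was inferred from signal because the labels do not give it, and every fold change below was fitted with the experiment in the model.

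Potassium channels let potassium leave or enter a cell down its electrochemical gradient and so set the resting membrane potential. In the smooth muscle of pulmonary arteries, channels that are open at rest keep the cell hyperpolarized and relaxed, and their closure depolarizes it, opens voltage-gated calcium channels and constricts the vessel. In airway and alveolar epithelium, potassium channels hold the driving force for the movement of sodium, chloride and fluid, which matters at birth, when the lung is cleared of liquid.

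Foxf1, the forkhead transcription factor disrupted in the mutants, had normalized log2 signals of 11.345, 11.128, 11.298 and 10.874 in the Foxf1+/- lungs of experiment A, against 11.899 and 12.024 in the wildtype lungs. In experiment B it had 10.316 and 9.999 in Foxf1+/- lungs, against 11.189, 11.528, 11.075 and 11.632 in wildtype lungs. The genotypes did not overlap within either experiment, and the log2 fold change was -1.0 ± 0.13 (SE, limma adjusted p = 0.00224), a 2-fold decrease in Foxf1+/- lungs. The exact permutation test within the experiments gave a two-sided p = 0.00444, the smallest that the 225 possible regroupings allow. Whether the Foxf1 probe lies inside the deleted stretch is not known from the sources used here, so the value checks the labels only if it does or if the disrupted allele makes less RNA.

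Most potassium channel genes gave little signal in these lungs. A log2 signal of 6.41, which is 0.5 above the 5th percentile of all gene means, was taken as the upper edge of the floor of the arrays, and 57 of the 88 genes lay at or under it in both genotypes. The other 31 lay above it in at least 1 genotype and 28 of them in both. For the other 3 the mean was above it in 1 genotype only, and none of these differences passed the test. The mean of Kcne1 was 6.53 in Foxf1+/- lungs and 6.31 in wildtype lungs, and replicate 2 of the mutants, at 8.11, carried it, since the other 5 mutants read 5.91 to 6.43. The mean of Kcnn4 was 6.30 in Foxf1+/- lungs and 6.46 in wildtype lungs, where replicate 5, at 7.07, carried it and the other 5 read 6.23 to 6.44. Kcnh6 averaged 6.35 in Foxf1+/- lungs and 6.59 in wildtype lungs, but it followed the experiments: all lungs of B, of both genotypes, lay above the floor and all lungs of A below it, and the fitted difference was 0.61 for B relative to A and -0.03 ± 0.07 between the genotypes.

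By subfamily, 9 of 35 voltage-gated genes, 4 of 13 inward rectifiers, 6 of 14 2-pore-domain channels, 2 of 8 calcium- or sodium-activated channels and 10 of 18 auxiliary and other genes lay above the floor in a genotype. Several channels with a known place in vascular or airway smooth muscle were among those near the floor. Kcna5, a voltage-gated channel of pulmonary arterial muscle, averaged 6.12 in Foxf1+/- lungs and 6.10 in wildtype lungs. Kcnma1, the pore of the large-conductance calcium-activated channel, averaged 6.12 in Foxf1+/- lungs and 6.22 in wildtype lungs, and its muscle subunit Kcnmb1 averaged 6.29 in Foxf1+/- lungs and 6.25 in wildtype lungs. For genes this close to the floor a fold change is damped, so their small fitted values (for Kcna5 -0.04 ± 0.06, for Kcnma1 -0.10 ± 0.07) place no firm limit on a change in RNA.

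**Figure D1:**
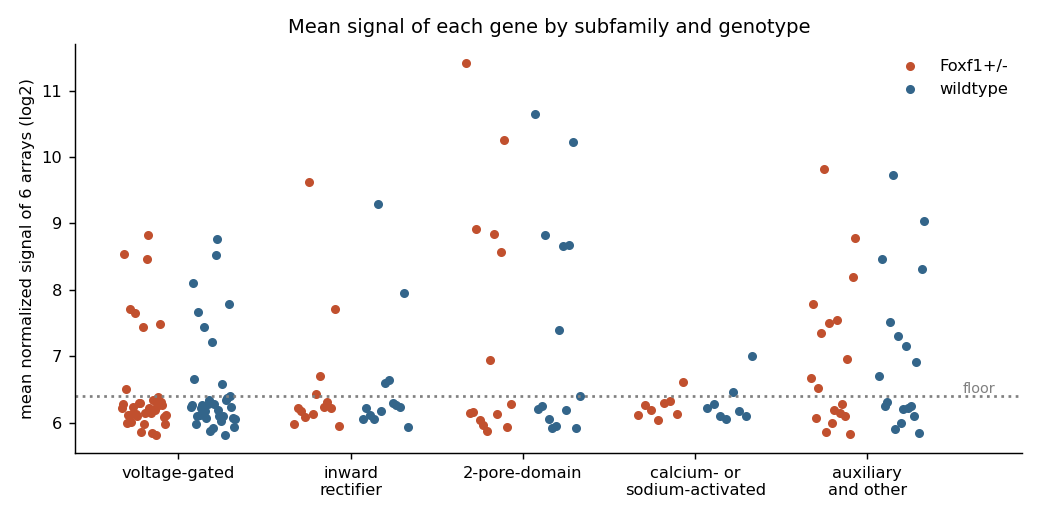
Mean normalized log2 signal of each of the 88 potassium channel genes over 6 arrays (vertical axis), by subfamily (horizontal axis), with Foxf1+/- lungs left of wildtype lungs in each subfamily and the floor of 6.41 as a dotted line. Each dot is 1 gene, and the dots crowd at the floor in all 5 subfamilies, most of all among the voltage-gated and the calcium- or sodium-activated channels.

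Between the genotypes, 75 members could be tested, since 13 fell to the filter on low signal, and 2 passed an adjusted p under 0.05. That is 2.67% of those tested, where 3.6% of all 15653 genes tested passed, so the share of changed genes was near that of the whole array. Kcnk1 was the 1 member that was higher in Foxf1+/- lungs (1.33%, against 1.81% of all genes) and Kcnq5 the 1 that was lower (1.33%, against 1.79% of all genes). At an unadjusted p under 0.05 there were 8 members, or 10.7%, against 18.9% of all genes. No member had genotypes that failed to overlap in the same direction in both experiments, where 6.07% of all genes did. The members' median log2 fold change was -0.007, the same as the -0.007 of all genes tested, with 35 members above zero, 40 below and a range of -0.46 to 0.68. Of the 50 members within 0.1 of zero, 43 lay near the floor and 7 above it.

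**Figure D2:**
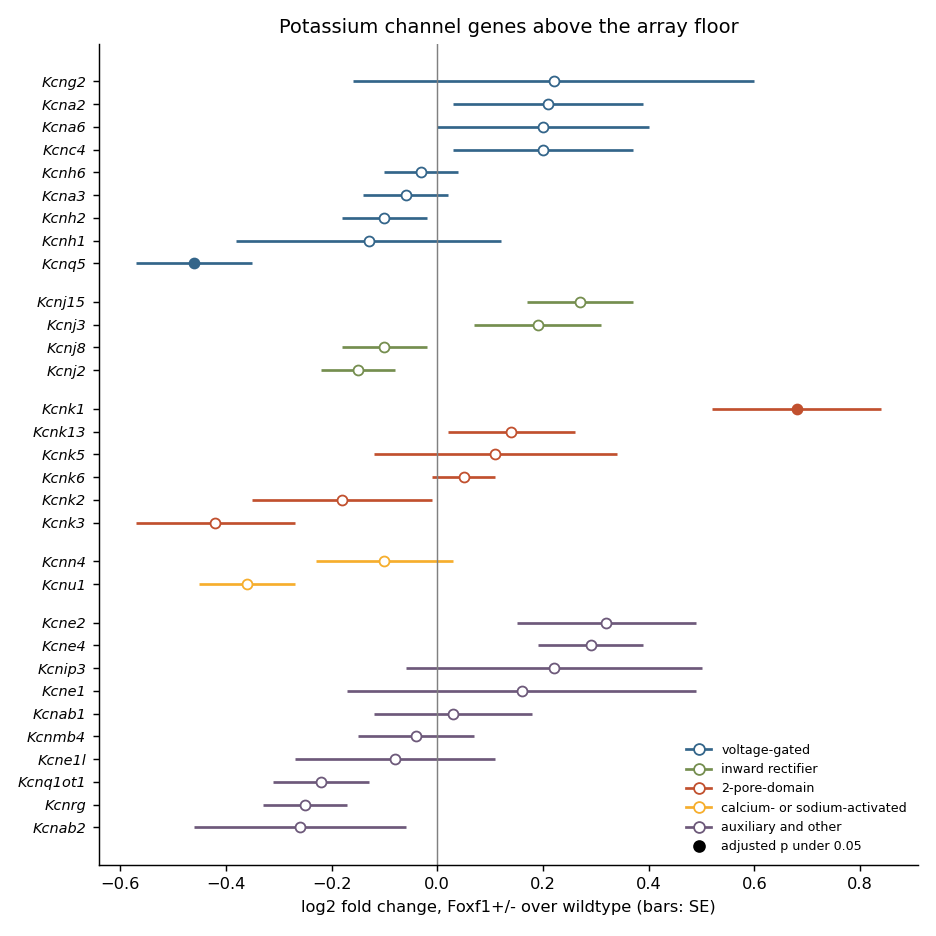
Log2 fold change of Foxf1+/- over wildtype (horizontal axis, bars show the SE of the limma fit over 12 arrays) for the 31 potassium channel genes above the floor in a genotype, grouped by subfamily. Filled symbols mark Kcnk1 (0.68) and Kcnq5 (-0.46), the 2 with an adjusted p under 0.05, and all others lie between -0.42 and 0.32.

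The 2-pore-domain channels carry the background potassium current that sets the resting potential, and 6 of them, Kcnk1, Kcnk2, Kcnk3, Kcnk5, Kcnk6 and Kcnk13, were above the floor. Kcnk1, known as TWIK-1, a weakly inward-rectifying background channel, was the member with the largest fitted fold change among the 75 tested. Its log2 signal was 11.07, 11.59, 11.55 and 11.66 in the Foxf1+/- lungs of experiment A, against 10.55 and 11.21 in the wildtype lungs. In experiment B it was 11.15 and 11.49 in Foxf1+/- lungs, against 10.82, 10.78, 10.37 and 10.19 in wildtype lungs. The genotypes did not overlap in B, and in A 1 Foxf1+/- lung (11.07) lay below the higher of the wildtype lungs.

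Kcnk1 rose in Foxf1+/- lungs by 0.68 ± 0.16 on the log2 scale (SE, limma adjusted p = 0.0420), a 1.61-fold difference with a 95% interval of 0.33 to 1.03. Within the experiments the log2 fold change was 0.58 in A and 0.78 in B. The exact permutation test of the signal gave a two-sided p = 0.00889 within the experiments and p = 0.00649 over all 12 arrays. It was run on a member already called by limma in the same arrays and is not adjusted over the members tested, so it adds no separate support. A second, separate Kcnk1 probe averaged 9.85 in Foxf1+/- lungs and 9.47 in wildtype lungs, with 0.54 ± 0.18 and a limma adjusted p = 0.143, in the same direction but not past the threshold. The call lay near the threshold and needed nearly all arrays. When each array was left out in turn, the log2 fold change stayed between 0.58 and 0.83. The limma adjusted p lay between 0.0205 and 0.165. The call was lost without any 1 of 10 arrays, that is, all but Foxf1+/- replicate 1 and wildtype replicate 2.

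**Figure D3:**
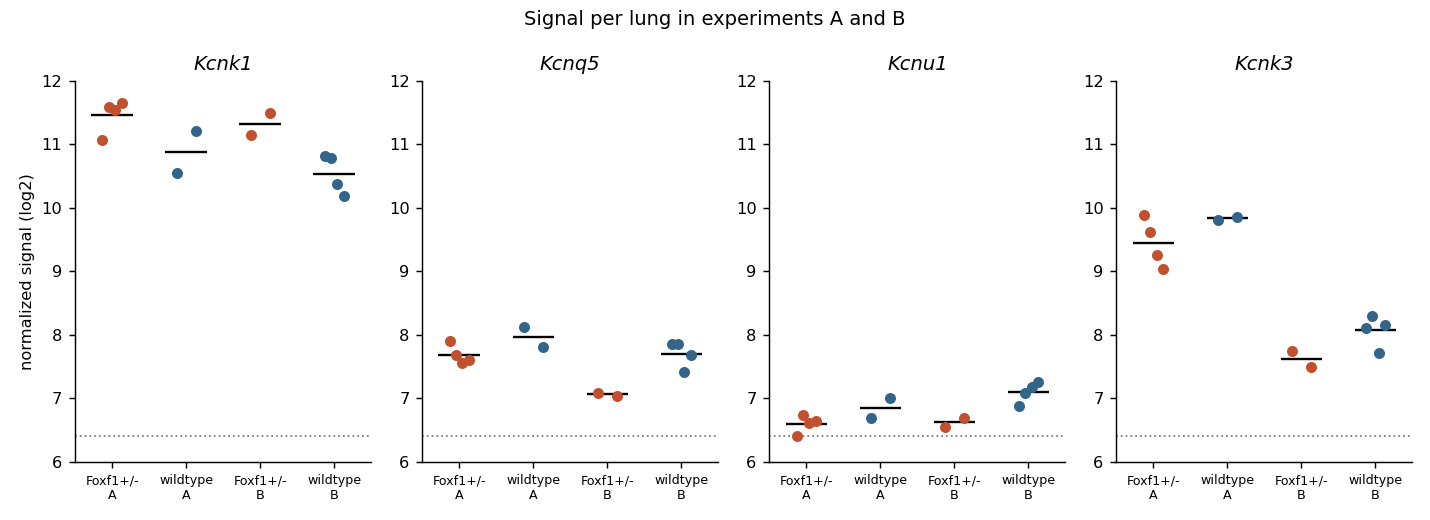
Normalized log2 signal (vertical axis) of Kcnk1, Kcnq5, Kcnu1 and Kcnk3 in each lung, with Foxf1+/- left of wildtype in experiments A and B, a black line at each mean and the floor as a dotted line. In experiment B the Foxf1+/- lungs lie above all wildtype lungs for Kcnk1 and below all of them for Kcnq5 and Kcnu1, in A the genotypes overlap for all 4 genes, and Kcnk3 lies between 9.04 and 9.89 in experiment A and between 7.49 and 8.30 in B.

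Kcnk3, or TASK-1, is the acid- and oxygen-sensitive background channel of pulmonary arterial smooth muscle, and loss of its function causes inherited pulmonary arterial hypertension in people. Its signal was 9.89, 9.62, 9.26 and 9.04 in the Foxf1+/- lungs of experiment A, against 9.81 and 9.86 in wildtype lungs. In experiment B it was 7.75 and 7.49 in Foxf1+/- lungs, against 8.11, 8.30, 7.72 and 8.16 in wildtype lungs. The genotypes overlapped in both experiments, and the gap between the experiments, fitted as -1.80 on the log2 scale for B relative to A, was the feature that stood out.

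With experiment in the model Kcnk3 had a log2 fold change of -0.42 ± 0.15 (95% interval -0.74 to -0.10, unadjusted p = 0.0136), which did not pass after adjustment over all probes (limma adjusted p = 0.162). It was -0.38 in A and -0.45 in B. Without the experiment term the sign turned, to 0.18, where 4 of the 6 Foxf1+/- lungs but 2 of the 6 wildtype lungs were in experiment A. The authors' processed values, corrected for experiment by ComBat and fitted without the inferred split, gave -0.34. The direction of the Kcnk3 difference thus depends on a correction for experiment, not on the inferred split alone.

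The remaining 2-pore-domain channels did not pass the test. Kcnk6 (TWIK-2), a background channel of vessels and macrophages, averaged 10.26 ± 0.10 in Foxf1+/- lungs and 10.23 ± 0.06 in wildtype lungs (SD, n = 6 each), and its interval of -0.07 to 0.18 leaves room for only a small change in signal. Kcnk13 averaged 8.91 ± 0.25 in Foxf1+/- lungs and 8.83 ± 0.18 in wildtype lungs. Kcnk5 (TASK-2), an epithelial channel opened by alkaline conditions, averaged 8.57 ± 0.62 in Foxf1+/- lungs and 8.68 ± 0.45 in wildtype lungs, with a log2 fold change of 0.11 ± 0.23 and a wide 95% interval of -0.40 to 0.62. Kcnk2 (TREK-1), a channel opened by stretch, averaged 6.94 ± 0.35 in Foxf1+/- lungs and 7.40 ± 0.65 in wildtype lungs. It was higher in experiment B by 0.83, and its fitted log2 fold change between the genotypes was -0.18 ± 0.17.

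Voltage-gated channels open on depolarization and bring the membrane back to rest. Of 29 tested, 1 passed, with a median log2 fold change of -0.01. Kcnq5 (Kv7.5), which carries a slow M-type current in neurons and in vascular and airway smooth muscle, had signals of 7.90, 7.69, 7.56 and 7.61 in the Foxf1+/- lungs of experiment A, against 8.13 and 7.81 in wildtype lungs. In experiment B it had 7.08 and 7.04 in Foxf1+/- lungs, against 7.85, 7.86, 7.41 and 7.68 in wildtype lungs. The genotypes did not overlap in B, and in A 1 Foxf1+/- lung (7.90) lay above the lower of the wildtype lungs.

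Kcnq5 fell by 0.46 on the log2 scale in Foxf1+/- lungs (SE 0.11, 95% interval -0.70 to -0.23, limma adjusted p = 0.0418). It changed by -0.28 in A and by -0.64 in B. The exact permutation test, here too run after the limma call and unadjusted, gave a two-sided p = 0.00889 within the experiments. Over all 12 arrays without regard to experiment the difference was -0.31 and the permutation p = 0.108. The other 2 Kcnq5 probes lay near the floor (means of 6.07 in Foxf1+/- lungs against 5.98 in wildtype lungs, and of 6.02 in Foxf1+/- lungs against 6.03 in wildtype lungs) and were not called, so 1 probe carries the result. With each array left out in turn the log2 fold change stayed between -0.57 and -0.41 and the adjusted p lay between 0.0206 and 0.162, and the call was lost without any 1 of 9 arrays, that is, all but Foxf1+/- replicate 1 and wildtype replicates 2 and 5.

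**Figure D4:**
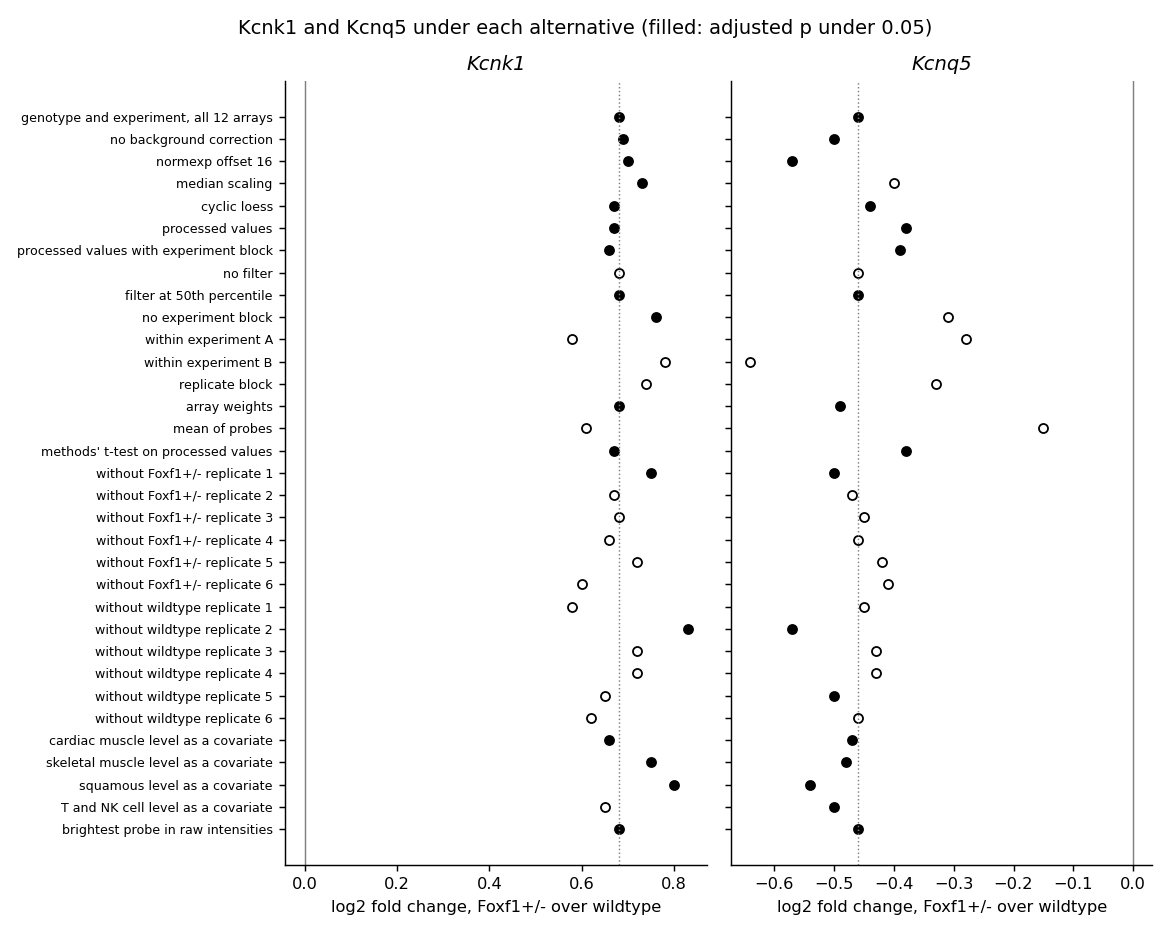
Log2 fold change of Foxf1+/- over wildtype (horizontal axis) for Kcnk1 and Kcnq5 under each way of processing the data or choosing the arrays (rows), with filled symbols where the adjusted p was under 0.05. Kcnk1 stays above zero and Kcnq5 below zero in every row shown, while the filled symbols are missing from many rows, among them the 2 experiments taken singly.

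The stretch of genome before the start of Kcnk1 and of Kcnq5 is shown because both moved in lungs short of a forkhead factor. Forkhead proteins bind the core letters TGTTTA or, read on the other strand, TAAACA, and each sequence below holds this hexamer, in capitals. They are from RefSeq (GRCm38.p6) and end 1 base before an annotated start, Kcnk1 on the + strand at chr8:125994852-125995101 and Kcnq5 on the - strand at chr1:21962651-21962900.
Kcnk1: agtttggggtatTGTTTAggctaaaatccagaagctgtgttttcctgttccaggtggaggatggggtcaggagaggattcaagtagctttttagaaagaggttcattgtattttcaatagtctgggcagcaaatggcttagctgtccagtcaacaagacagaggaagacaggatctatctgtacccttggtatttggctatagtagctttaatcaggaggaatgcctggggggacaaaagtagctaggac
Kcnq5: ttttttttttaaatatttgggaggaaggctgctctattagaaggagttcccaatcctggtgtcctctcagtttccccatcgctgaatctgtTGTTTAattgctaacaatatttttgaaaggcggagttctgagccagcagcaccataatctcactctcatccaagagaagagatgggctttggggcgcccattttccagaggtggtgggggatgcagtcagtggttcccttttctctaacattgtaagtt
The first base of the hexamer lies 238.0 bases before the start of Kcnk1 and 159.0 bases before that of Kcnq5, and a second annotated start of Kcnq5 has none in its 250 bases. The match is common: in windows of 250 bases before and 50 after a start, 13.4% of all 32851 windows held the hexamer on either strand, and 7 of 92 windows (7.61%) of the potassium channel genes did, those of Kcnab2, Kcnip1, Kcnip4, Kcnj15, Kcnk1, Kcnk13 and Kcnq5. A match in the letters says nothing of whether a factor binds there. A longer form, TGTTTAC, stood in 3.65% of all windows and in 0 of the 92. Windows were at hand for 67 of the 88 members.

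None of the other voltage-gated genes above the floor passed. Kcnh2 (the hERG channel of cardiac repolarization) averaged 8.82 ± 0.29 in Foxf1+/- lungs and 8.77 ± 0.24 in wildtype lungs, with a log2 fold change of -0.10 ± 0.08, and another of its 4 probes, at 7.89 in Foxf1+/- lungs against 8.38 in wildtype lungs, gave -0.23 ± 0.08 with an unadjusted p = 0.00917 that was lost on adjustment (limma adjusted p = 0.132). Kcnh1 averaged 8.47 ± 0.61 in Foxf1+/- lungs and 8.53 ± 0.24 in wildtype lungs, with its widest spread among the mutants (7.74 to 9.34). Kcna2, a delayed rectifier, averaged 8.54 ± 0.39 in Foxf1+/- lungs and 8.10 ± 0.55 in wildtype lungs, a gap that shrank to 0.21 ± 0.18 once experiment was in the model. Kcna3, the channel of T cells, and Kcna6, Kcnc4, Kcng2 and Kcnh6 had fitted log2 fold changes between -0.06 and 0.22.

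Kcng2 (Kv6.2), a silent subunit that alters other voltage-gated channels and is known from heart muscle, varied from lung to lung with the level of heart muscle markers in the same sample. It read 7.10, 8.63, 6.39, 7.75, 7.02 and 7.78 in Foxf1+/- replicates 1 to 6 and 7.75, 6.59, 7.84, 7.35, 7.36 and 6.43 in wildtype replicates 1 to 6. The mean log2 signal of 6 cardiac muscle markers in the same lungs was 11.40, 12.83, 10.19, 12.61, 11.81 and 12.73 in the Foxf1+/- group, against 12.61, 10.99, 12.60, 12.19, 12.29 and 9.99 in the wildtype group. The lungs with the lowest marker level also had the lowest Kcng2 in each genotype, Foxf1+/- replicate 3 and wildtype replicate 6.

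Over the 12 lungs the Pearson correlation of Kcng2 with the cardiac markers was 0.92 (permutation p = 1e-05, the smallest that 100000 resamples can give, adjusted 0.00124) and the Spearman correlation 0.94 (permutation p = 4.00e-05, adjusted 0.00496). It was 0.89 without the 2 lungs farthest from the median marker level, 0.94 within experiment A and 0.95 within B. The adjustment is over 124 relations, those of the 31 members above the floor with 4 marker levels (cardiac muscle, skeletal muscle, squamous epithelium, T and NK cells), and this was the only one past the threshold by both measures. With the cardiac level as a covariate the SE of the Kcng2 log2 fold change shrank to 0.16, against 0.38 without it, and the log2 fold change was 0.08, against 0.22. Of the 6 cardiac markers limma called 0 between the genotypes, with 0 at an unadjusted p under 0.05, and their summed linear signals varied widely in both, at 11986 to 79629 in Foxf1+/- lungs against 14729 to 73399 in wildtype lungs.

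**Figure D5:**
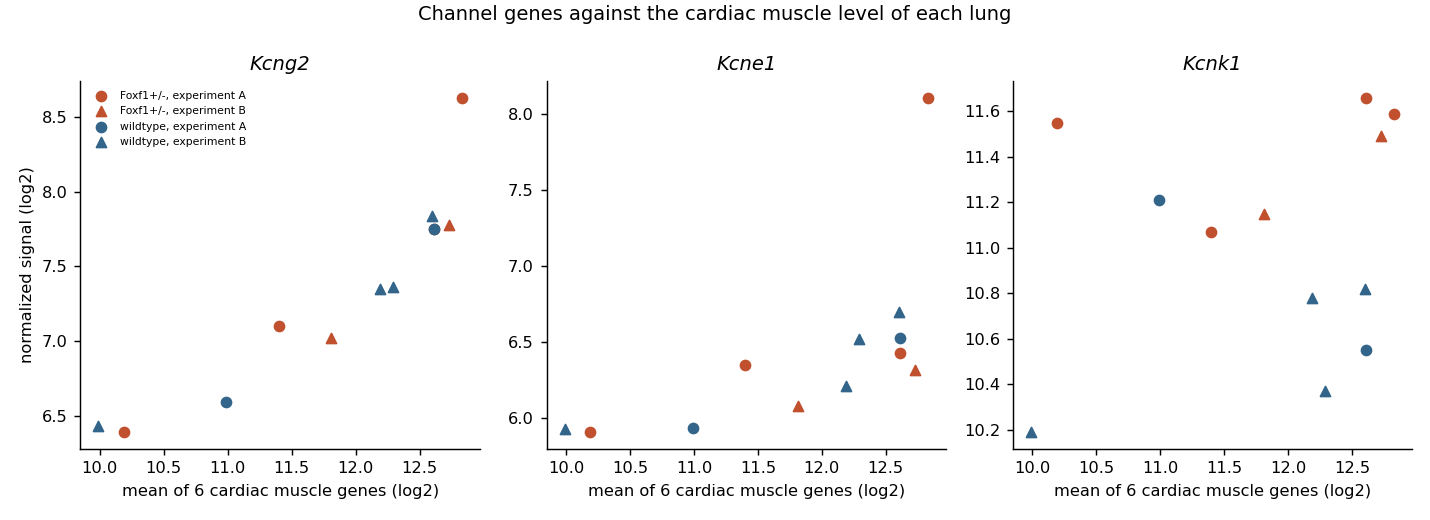
Normalized log2 signal of Kcng2, Kcne1 and Kcnk1 (vertical axes) against the mean log2 signal of 6 cardiac muscle genes in the same lung (horizontal axis), with Foxf1+/- and wildtype lungs in 2 colours and experiments A and B as circles and triangles. Kcng2 climbs with the cardiac level in both genotypes, where Foxf1+/- replicate 4 and wildtype replicate 1 coincide. Kcne1 climbs less evenly (Pearson 0.63, Spearman 0.81) and Kcnk1 weakly (Pearson 0.19, Spearman 0.34).

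Inward rectifiers pass potassium more easily into the cell than out of it. Limma called 0 of 12 tested, with 1 at an unadjusted p under 0.05, and their median log2 fold change was 0.00. Kcnj15 (Kir4.2) had the nearest to a change, with 9.77, 9.86, 9.60 and 9.43 in the Foxf1+/- lungs of experiment A against 9.39 and 9.56 in wildtype lungs, and 9.73 and 9.40 in the Foxf1+/- lungs of experiment B against 9.34, 9.02, 9.40 and 9.11 in wildtype lungs. The genotypes overlapped in A, and in B the lower Foxf1+/- lung equalled the highest wildtype lung to 2 decimals. The log2 fold change was 0.27 ± 0.10 (unadjusted p = 0.0217, limma adjusted p = 0.203), and another Kcnj15 probe with signal, at 9.09 in Foxf1+/- lungs and 8.87 in wildtype lungs, gave 0.07 ± 0.11.

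Kcnj8 (Kir6.1), the pore of the ATP-sensitive channel of vascular muscle and pericytes, averaged 7.71 ± 0.19 in Foxf1+/- lungs and 7.95 ± 0.29 in wildtype lungs. With experiment in the model this was -0.10 ± 0.08, with a 95% interval of -0.26 to 0.07. Its partner Abcc9, the sulfonylurea receptor, averaged 8.08 in Foxf1+/- lungs and 8.11 in wildtype lungs, with -0.02 ± 0.10. Kcnj2, a classical strong rectifier, averaged 6.44 ± 0.08 in Foxf1+/- lungs and 6.60 ± 0.13 in wildtype lungs, with -0.15 ± 0.07 (unadjusted p = 0.0526).

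Of 8 calcium- or sodium-activated channels limma called 0, with 1 at an unadjusted p under 0.05, and all but Kcnn4 and Kcnu1 lay near the floor. Kcnu1 (Slo3), a channel known from sperm, was the member nearest to the threshold without passing it. It read 6.41, 6.74, 6.61 and 6.64 in the Foxf1+/- lungs of experiment A, against 6.69 and 7.0 in wildtype lungs, and 6.55 and 6.69 in the Foxf1+/- lungs of experiment B, against 6.88, 7.08, 7.17 and 7.25 in wildtype lungs. The genotypes overlapped in A but not in B, and the log2 fold change was -0.36 ± 0.09 (limma adjusted p = 0.0565). Its signal lay within 1 log2 unit of the floor in every lung, and it has 1 probe.

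Kcnn4, the intermediate-conductance channel of T cells, red cells and epithelium, averaged 6.30 ± 0.16 in Foxf1+/- lungs and 6.46 ± 0.31 in wildtype lungs. Its highest value, 7.07, was that of wildtype replicate 5, where the mean log2 signal of the 7 T and NK cell markers was also 9.07, against 6.57 to 6.68 in the Foxf1+/- lungs and 6.61 to 6.73 in the other wildtype lungs. The Pearson correlation of Kcnn4 with that level, 0.88, fell to 0.08 without wildtype replicates 5 and 6, the 2 farthest from the median level. Replicate 6, at a level of 6.73 and a Kcnn4 of 6.44, lay close to the other lungs, so the correlation rests mainly on replicate 5.

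Auxiliary subunits change how the pores open and close and whether they reach the membrane. None of 15 such and other genes tested passed, and 3 had an unadjusted p under 0.05. Kcne4, a subunit that alters the current of several voltage-gated channels, read 7.35, 7.11, 7.40 and 7.62 in the Foxf1+/- lungs of experiment A against 7.09 and 7.32 in wildtype lungs, and 7.61 and 7.92 in the Foxf1+/- lungs of experiment B against 7.42, 7.18, 7.49 and 7.31 in wildtype lungs. The Foxf1+/- lungs were the higher ones in B and overlapped the wildtype lungs in A, for a log2 fold change of 0.29 ± 0.10 (unadjusted p = 0.0165, limma adjusted p = 0.176).

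Kcnrg, which encodes a soluble regulator that interferes with the assembly of voltage-gated channels, read 8.82, 8.82, 8.90 and 8.62 in the Foxf1+/- lungs of experiment A against 9.05 and 8.90 in wildtype lungs, and 8.89 and 8.65 in the Foxf1+/- lungs of experiment B against 9.10, 9.13, 8.87 and 9.17 in wildtype lungs. The mutants lay low in A, where their highest lung equalled the lower wildtype lung to 2 decimals, and overlapped the wildtype lungs in B. The log2 fold change was -0.25 ± 0.08 (unadjusted p = 0.00745, limma adjusted p = 0.119), and a second probe gave -0.20 ± 0.11 (limma adjusted p = 0.392). In the annotation Kcnrg overlaps Trim13 and Dleu2, so its probes may also read their transcripts. Kcnq1ot1, the noncoding antisense transcript of Kcnq1 in an imprinted domain, averaged 8.20 ± 0.14 in Foxf1+/- lungs and 8.32 ± 0.28 in wildtype lungs, with -0.22 ± 0.09 (unadjusted p = 0.0333, limma adjusted p = 0.249). Kcnq1 itself was near the floor, at 6.25 in Foxf1+/- lungs and 6.34 in wildtype lungs.

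Kcne2, a small subunit with which Kcnq1 and Kcnh2 assemble, averaged 9.82 ± 0.56 in Foxf1+/- lungs and 9.73 ± 0.35 in wildtype lungs, and the fitted log2 fold change was 0.32 ± 0.17 (limma adjusted p = 0.363). Kcnab2, a beta subunit of Kv1 channels, averaged 7.79 ± 0.58 in Foxf1+/- lungs and 8.47 ± 0.86 in wildtype lungs, and was higher by 1.25 in experiment B than in A. The fitted genotype difference was -0.26 ± 0.20. Its highest value, 9.59, was again that of wildtype replicate 5.

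The experiments moved many members more than genotype did. Among the 31 members above the floor, the fitted difference between experiments was larger in size than that between genotypes for 22, and it exceeded 0.5 on the log2 scale for 8, while the genotype difference exceeded 0.5 for 1, Kcnk1. Tested as an interaction in limma, the genotype effect of 0 of the 75 members and of 0 of 33947 probes differed between the experiments after adjustment (the lowest adjusted p of all probes was 0.999), and 0 members and 1142 probes had an unadjusted p under 0.05.

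Several groups of cell type markers varied among these lungs, and for whole lung, fewer cells of a type and less RNA per cell cannot be told apart. Of 8 lung epithelial markers all but Epcam lay above the floor, and of 7 tested limma called 0, with 1 at an unadjusted p under 0.05. Mast cell markers were higher in Foxf1+/- lungs, with 5 of 5 called, a median log2 fold change of 2.44 and summed linear signals of 4295 to 6316 against 836 to 1220 in wildtype lungs. Of 6 smooth muscle markers limma called 0, with 2 at an unadjusted p under 0.05 (Acta2 at 0.40 ± 0.11 and Tagln at 0.42 ± 0.11) and a median of -0.06. Their summed signal, which Acta2 leads, was 31062 to 33300 in Foxf1+/- lungs and 18975 to 30948 in wildtype lungs, without overlap. Squamous and oesophageal markers, of which only Dsg3 was near the floor, summed to 1037 to 5903 in Foxf1+/- lungs and 1227 to 12215 in wildtype lungs (median log2 fold change -1.05). Skeletal muscle markers summed to 1700 to 26201 in Foxf1+/- lungs and 1398 to 21876 in wildtype lungs (median -0.62), and limma called 0 genes of either list, with 0 at an unadjusted p under 0.05. The T and NK cell list had a median of -0.38, likewise with 0 called and 0 at an unadjusted p under 0.05. The part of mast cells and smooth muscle in the Kcnk1 and Kcnq5 results was not tested.

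With each of 4 uneven marker levels in turn as a covariate, which was chosen after seeing the data, Kcnk1 had log2 fold changes of 0.66 with the cardiac, 0.75 with the skeletal muscle, 0.80 with the squamous and 0.65 with the T and NK cell level, and passed in all but the last (limma adjusted p = 0.0607). Kcnq5 had -0.47, -0.48, -0.54 and -0.50 with the same 4 levels and passed in each. The T and NK cell level was 9.07 in wildtype replicate 5 and 6.57 to 6.73 in the other lungs. As a covariate it therefore mainly marks that 1 lung and says little of these cells. Leaving out wildtype replicate 5 gave 0.65 for Kcnk1 (limma adjusted p = 0.0576) and -0.50 for Kcnq5 (limma adjusted p = 0.0292). The squamous level brought 7 members past the threshold (9.33%, against 8% of all genes), with Kcna6 (0.54), Kcne2 (0.55) and Kcne4 (0.42) higher and Kcnk3 (-0.60) and Kcnrg (-0.36) lower beside Kcnk1 and Kcnq5.

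Genes that work with potassium channels were read from lists of 65 names, of which 50 were tested, with a median log2 fold change of -0.02. 2 were higher in Foxf1+/- lungs. Sgk1, a kinase that raises the number of several sodium and potassium channels at the membrane, averaged 14.28 in Foxf1+/- lungs and 13.60 in wildtype lungs (0.74 ± 0.16, limma adjusted p = 0.0302). Fxyd5, a regulator of the sodium-potassium pump, averaged 12.24 in Foxf1+/- lungs and 11.61 in wildtype lungs (0.40 ± 0.09, limma adjusted p = 0.0398).

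2 genes of these lists were lower. Atp12a, the non-gastric proton-potassium pump, averaged 7.05 in Foxf1+/- lungs and 7.66 in wildtype lungs (-0.60 ± 0.10, limma adjusted p = 0.00731). Cacnb2, a beta subunit of the voltage-gated calcium channels that depolarization opens, averaged 8.45 in Foxf1+/- lungs and 8.90 in wildtype lungs (-0.50 ± 0.10, limma adjusted p = 0.0197). That is 4 of 50 genes, or 8%, beside 3.6% of all genes tested. The lists were chosen with earlier results of these data known, so this share is not read as an excess. At an unadjusted p under 0.05 there were 4 of 9 scaffold and anchor genes of voltage-gated channels. There were also 3 of 15 genes of the potassium gradient and 1 of 12 calcium channel genes, where 18.9% of all genes reached that level. The lists for the ATP-sensitive channel, the gamma subunits of the large-conductance channel, the Kv4 partners and the calmodulins had 0 genes called and 0 at an unadjusted p under 0.05, and that of other cation channels 0 called and 1 at an unadjusted p under 0.05. How far the 4 calls of these lists depend on single arrays or on the processing was not tested.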

How the data were processed

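Whole-lung RNA of 6 Foxf1+/- and 6 wildtype mice was measured on 12 Illumina MouseWG-6 v2.0 arrays. The authors deposited raw probe intensities, neither background corrected nor normalized, and processed log2 values, which per the methods the authors made by variance stabilization, robust spline normalization and ComBat (no versions are given in these sources). The raw intensities were used, with 18 probes whose cells were shifted left out (none of a Kcn gene), which left 45263, and the processed values served as an alternative. Columns were matched to lungs by name.

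The background of each array was removed by normexp with an offset of 50, and quantile normalization was run after taking log2 (R 4.3.3 with limma 3.58.1). Then the 33947 probes with a mean above the 25th percentile were tested. Neqc and a filter on detection, which had been planned, need control probes or detection p-values that the table used here does not hold. The experiments were found by 2-means clustering of arrays on low, middle and high percentiles of raw signal (mean silhouette 0.75). Limma fitted genotype and experiment, with moderated two-sided tests, Benjamini-Hochberg adjustment over all probes and a call at an adjusted p under 0.05. On simulated data of 33947 probes this recovered 79% of probes changed by 0.5, 95% of those changed by 1 and 99% of those changed by 2 on the log2 scale, with 27 unchanged probes called. The simulated noise was independent between probes, and the full change was added to probes near the floor too, where real changes are damped. The shares are over all probes and do not say how often a change in a given member would be found. The number of arrays limits the precision.

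The members and gene lists were chosen with earlier results of these data known. The rule named Foxf1, each member called or with an unadjusted p under 0.05, the 2 genes of highest signal in each subfamily, members with an array that stood apart and called genes of the partner lists. Other members, among them Kcna2, Kcna5, Kcng2, Kcnk2, Kcnab2, Kcnma1, Kcnmb1 and Kcnj2, were chosen after their values were seen, as were the correlations with marker levels and the promoter letters. Of the marker lists not described in the report, endothelium, pericytes, neurons and Schwann cells, erythroid cells and macrophages had 0 genes called by limma (3, 2, 0, 1 and 0 at an unadjusted p under 0.05, in that order, with median log2 fold changes of -0.04, -0.10, -0.06, -0.54 and -0.05).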

Additional observations from a re-analysis of the deposited data

Results flagged for a closer look

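Within each genotype, 5 of 64 groups of 6 arrays, those of 31 members above the floor and Foxf1, held 1 array whose gap to its neighbour exceeded the 95% limit of Dixon's test, and chance flags about 1 in 20 groups. The groups pool both experiments, whereas the 1 in 20 holds for groups without a shift between experiments. Kcne1, the small subunit of the slow delayed rectifier of heart and inner ear, read 8.11 in Foxf1+/- replicate 2, against 5.91 to 6.43 in the other 5 mutants, and that lung also had the highest cardiac marker level (12.83) and the highest Kcng2 (8.63). Kcnh1 read 9.0 in wildtype replicate 6, against 8.35 to 8.51 in the other wildtype lungs. Kcnj3, a G-protein-gated rectifier of the atrium, read 6.10 in wildtype replicate 2, against 6.61 to 6.91. The cardiac level there was 10.99, the second lowest of the wildtype lungs, but replicate 6, with the lowest (9.99), read 6.76. Kcnk5 read 7.79 in wildtype replicate 1, against 8.69 to 8.95 in the other wildtype lungs. Wildtype replicates 1 and 2 were those of experiment A, and replicate 2 read 8.92 for Kcnk5. The fitted difference for B relative to A was 0.67 for Kcnk5 and 0.43 for Kcnj3. Kcnn4 read 7.07 in wildtype replicate 5, against 6.23 to 6.44, in the lung with a T and NK cell level of 9.07. Over the 12 lungs the Pearson correlations with the cardiac level were 0.63 for Kcne1 (permutation adjusted p = 0.28) and 0.57 for Kcnj3 (permutation adjusted p = 0.359). The Spearman correlations were 0.81 for Kcne1 (permutation adjusted p = 0.114) and 0.55 for Kcnj3 (permutation adjusted p = 0.546). The part of the marker levels in the single values was not tested.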

How the results depend on the processing

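The number of members called was 2 in the fit reported. It was 1 with median scaling (Kcnk1), 1 with no experiment block (Kcnk1) and 4 with the processed values. It was 0 with no filter on low signal, within experiment A, within experiment B and with the mean of a gene's probes. A normexp offset of 16 and a filter at the 50th percentile each gave 3, as Kcnu1 joined Kcnk1 and Kcnq5. With marker levels as covariates, chosen after seeing the data, it was 4 with skeletal muscle, 7 with squamous and 1 with T and NK cell markers. Leaving out each array in turn gave 0 to 2. With the replicate block it was 0 (Kcnk1 0.74, adjusted p = 0.0890, and Kcnq5 -0.33, adjusted p = 0.181, by limma). The labels do not say that equal numbers are pairs, and 0 of 6 same-number correlations of residuals exceeded 0.1 (-0.395 to -0.048). Likewise 0 of 6 mutants correlated best with their own number. These residuals are constrained by the fit of genotype and experiment and the pairs are few, so a pairing is not excluded. Over all genes, 88 of 15653 were called with that block, against 564 without it. The count over all genes was also 1421 with the processed values, 357 with median scaling and 284 with no experiment block. It was 8 within experiment A, 37 within experiment B and 230 to 617 with each array left out. Marker levels as covariates gave 1095 with skeletal muscle, 1253 with squamous and 590 with T and NK cell markers. No filter gave 499 of 19057, and the mean of probes 592 of 22084 genes and unnamed probes. The offset of 16 gave 472 of 15648 and the filter at the 50th percentile 637 of 11881.

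Foxf1 was lower in every fit, but its call was lost with no experiment block (-0.73, adjusted p = 0.184), within experiment A (-0.80, adjusted p = 0.174), within experiment B (-1.20, adjusted p = 0.0695) and with the replicate block (-0.96, adjusted p = 0.0933). Leaving out 1 array gave -1.07 to -0.89. Kcnk3 reversed to 0.18 with no experiment block. The members' median stayed within its spread of 0.015 under each of 31 alternatives. Kcnk1 kept its call in 16 of 32 alternatives and Kcnq5 in 16 of 32, each with its direction kept in all. Kcnu1 passed in 6, Kcnrg in 3, Kcne4 and Kcnk3 in 1 each. The cause of these changes was not tested. Within 1 experiment only 6 arrays entered. Signal near the floor limits what can be seen for 57 of the 88 members.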
